A study of Mus musculus with 6 samples.

Results

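Cells build cholesterol and long-chain fatty acids from the same starting molecule, acetyl-CoA, and the genes of these 2 routes were compared in F4/80+ cells of tumours grown in mice with and without ST2. The genes were taken from a list of 31 by name, of which 20 form a sterol arm and 11 a fatty acid arm, and the rule uses no difference between the groups. For 30 of them, 19 sterol and 11 fatty acid genes, the platform table gave a probe set with a single symbol, and where a gene had more than 1 the brightest over the 6 arrays was taken. Acat2, an acetyl-CoA thiolase, had none in that table and was not analysed here. The whole table gave 19938 such genes.

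F4/80, encoded by Adgre1, marks mouse macrophages. ST2 is the receptor through which cells sense the cytokine encoded by Il33, and no single-symbol probe set stood for its own gene, so the arrays gave no check of the genotype. One group was F4/80+ cells from tumours implanted in wild type mice (3 samples), the other F4/80+ cells from tumours implanted in St2-/- mice (3 samples). The tumour line, the mouse strain and age, and the way the cells were isolated are not given in the labels, nor whether replicates are from separate mice, so p-values measure the spread between these samples only, which may be technical. The allele was a property of the host and the implanted tumour is not described as carrying it. Values are deposited RMA expression values on a log2 scale, in which a difference of 1 is a doubling, and every difference below is St2-/- minus wild type.

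In the sterol arm, the mevalonate steps turn acetyl-CoA into an isoprenoid unit, isoprenoids are joined to squalene, squalene is closed into lanosterol, and a chain of demethylases, reductases and isomerases leads from there to cholesterol. In the fatty acid arm, citrate is split to acetyl-CoA, acetyl-CoA carboxylase and fatty acid synthase assemble the chain with NADPH as reductant, and elongases and desaturases then lengthen it and add double bonds. Both arms are textbook targets of the sterol regulatory element-binding proteins encoded by Srebf1 and Srebf2, which Insig1 holds in the endoplasmic reticulum while sterols are plentiful. Macrophages use both routes for membranes, and they also take up lipid from dying cells, which lowers their need to make it.

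In the fatty acid arm 4 of 11 genes passed, with the desaturase genes Scd2 and Scd1 and the malic enzyme gene Me1 lower in St2-/- cells and the elongase gene Elovl5 higher. In the sterol arm 1 of 19 passed, Hsd17b7, which was lower. A gene was called when its limma p, adjusted by Benjamini-Hochberg over all genes, was under 0.05. Over all genes 20.8% were called, 10.7% higher and 10.0% lower. All 30 measured genes were brighter than the dimmest 40% of genes, and of the genes above that limit 30.4% were called. The sterol arm's share of 5.26%, on 19 genes, lay below both backgrounds. The fatty acid arm's 36.4%, on 11 genes, lay above the 20.8% over all genes and near the 30.4% of brighter genes. The median difference was 0.04 in the sterol arm and -0.10 in the fatty acid arm, against -0.02 over all genes. With median-centred arrays these medians were 0.13, -0.01 and 0.07, and after cyclic loess 0.002, -0.15 and -1e-04. The median size of a difference, whatever its sign, was 0.07 in the sterol arm, 0.13 in the fatty acid arm and 0.12 over all genes.

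**Figure D1:**
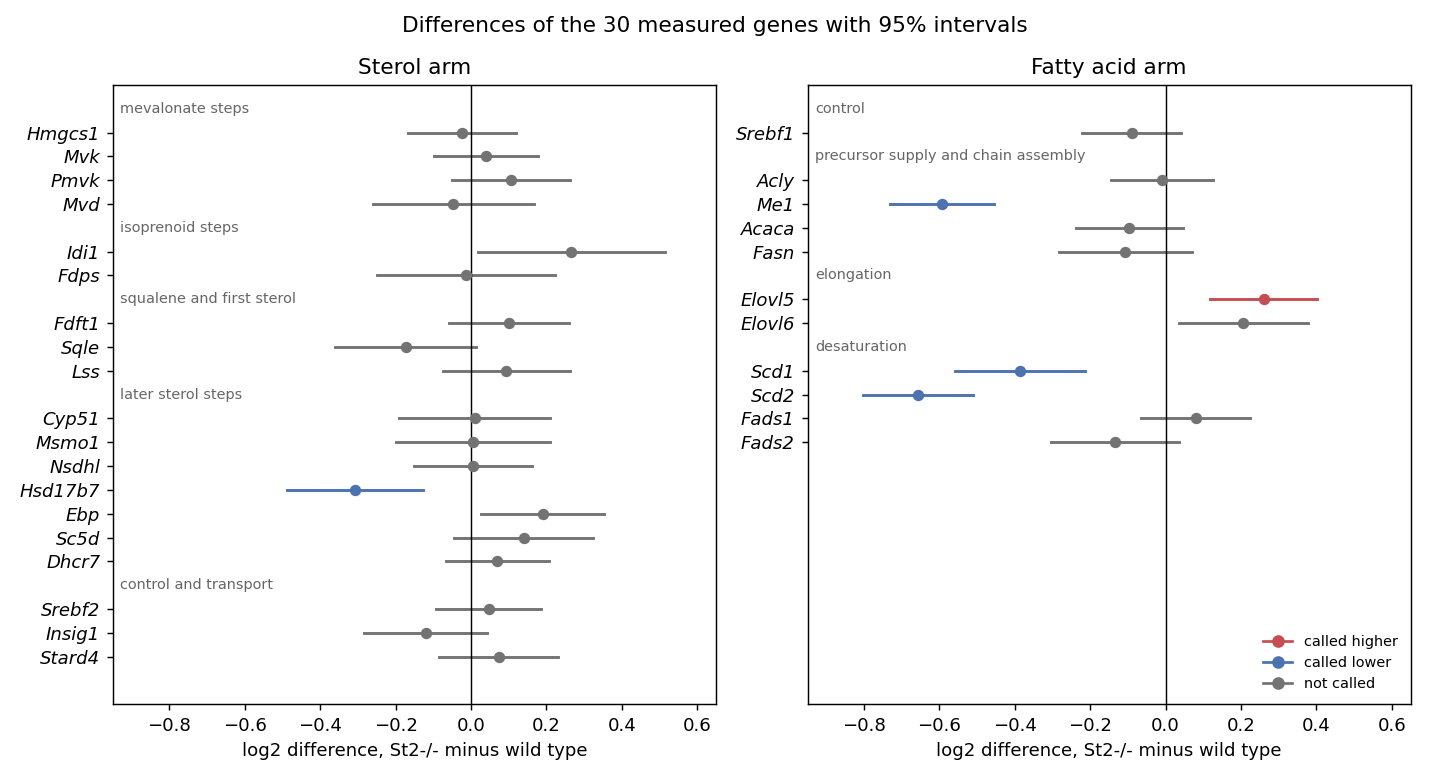
Log2 difference (St2-/- minus wild type, horizontal axis) of each of the 30 measured genes, with its 95% interval from limma as a line, the sterol arm on the left and the fatty acid arm on the right, grouped by role. Blue marks the genes called lower, red the gene called higher and grey those not called. Scd2, Me1 and Scd1 lie farthest from 0, and 18 of the 19 sterol arm intervals stay within 0.5 on either side of 0.

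Across the series, arrays of a group were alike and the genotypes lay apart (Pearson r over genes 0.996 to 0.998 within and 0.986 to 0.988 between groups). Of 9 macrophage marker genes 3 were called higher, 3 lower and 3 not called (66.7% called, against 20.8% over all genes). Adgre1 averaged 11.32 in wild type and 11.63 in St2-/- (called higher), and Csf1r 12.07 and 12.11 (not called), where the median over all genes was 5.81 to 5.93 on each array. The macrophage genes called lower were Mertk (-0.72), Lyz2 (-0.71) and Cd14 (-0.35), where Scd2 among the members stood at -0.66. Those called higher were Adgre1 (0.31), Fcgr1 (0.36) and Aif1 (0.59), and the median difference of the 9 genes was 0.05. The split of calls by direction moved with the scaling: 51.8% of all calls were higher as deposited, 74.0% (3686 higher and 1294 lower) with median-centred arrays, and 46.8% with cyclic loess. Centring moved the median difference over all genes from -0.02 to 0.07. In bulk samples fewer cells of a type and less RNA per cell cannot be told apart.

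Promoter sequence was looked at because several members of each arm are known to share activators. Windows of the 250 bases before the annotated start site were read from RefSeq (GRCm38.p6) for 23 of the 30 measured genes, 15 sterol and 8 fatty acid, with 29 windows in all. Each was searched on both strands for the exact letters of 4 motifs, allowing motifs to overlap. A CCAAT box was found in at least 1 window of 15 of the 15 sterol genes and of 4 of the 8 fatty acid genes, where 33.8% of all 32851 windows held one. A GC box (GGGCGG) was found for 14 of 15 and 4 of 8, against 32.7% of windows. An E box (CACGTG) was found for 4 of 15 (Dhcr7, Hsd17b7, Insig1 and Sc5d) and for 1 of 8 (Elovl5), against 6.02%. The core of the sterol regulatory element (TCACNCCAC) was found for 1 of 15, Hmgcs1, and 0 of 8, against 1.05%. Dhcr7, Pmvk, Me1 and Srebf1 have more than 1 window and so more chances of a match. Scd1, Scd2 and Fads1 had no window and were not searched. Sites that depart from the exact letters were not counted, so a gene without a match may still hold such a site.

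Shown here are the windows of the called genes that have one, Me1, Elovl5 and Hsd17b7, and that of Hmgcs1, the window with the sterol regulatory element core. Capitals mark the bases of the motifs above, read 5′ to 3′ along the strand of the gene, so that a CCAAT box on the other strand reads ATTGG. A GC box there reads CCGCCC. No motifs overlap in these windows.
Me1 (chr9:86695915-86696164, minus strand): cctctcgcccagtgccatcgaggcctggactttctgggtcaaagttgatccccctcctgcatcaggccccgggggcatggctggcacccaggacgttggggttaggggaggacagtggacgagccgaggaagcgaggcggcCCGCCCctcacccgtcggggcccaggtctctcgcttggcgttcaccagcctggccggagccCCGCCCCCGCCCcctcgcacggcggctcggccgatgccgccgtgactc
Elovl5 (chr9:77917115-77917364, plus strand): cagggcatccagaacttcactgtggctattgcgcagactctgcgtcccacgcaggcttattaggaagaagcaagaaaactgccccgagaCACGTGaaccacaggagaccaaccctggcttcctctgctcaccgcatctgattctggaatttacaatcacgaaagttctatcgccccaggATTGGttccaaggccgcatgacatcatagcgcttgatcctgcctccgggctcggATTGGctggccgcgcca
Hsd17b7 (chr1:169969206-169969455, minus strand): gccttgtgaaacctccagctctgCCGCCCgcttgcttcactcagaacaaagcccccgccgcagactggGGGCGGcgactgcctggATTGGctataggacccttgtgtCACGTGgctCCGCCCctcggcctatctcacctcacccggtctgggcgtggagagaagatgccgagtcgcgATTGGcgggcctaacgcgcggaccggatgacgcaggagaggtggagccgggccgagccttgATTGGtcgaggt
Hmgcs1 (chr13:119690101-119690350, plus strand): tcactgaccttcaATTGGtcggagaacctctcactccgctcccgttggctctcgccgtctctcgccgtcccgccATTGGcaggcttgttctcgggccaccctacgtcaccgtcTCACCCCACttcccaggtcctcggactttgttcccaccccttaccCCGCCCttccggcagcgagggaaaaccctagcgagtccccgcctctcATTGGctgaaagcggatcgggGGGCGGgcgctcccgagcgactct
The Hsd17b7 window holds 3 CCAAT boxes, 3 GC boxes and 1 E box, and the Hmgcs1 window holds 3 CCAAT boxes, 2 GC boxes and the element core, 137 to 129 bases before the start. Elovl5, the gene that rose, has an E box 161 to 156 bases before its start and 2 CCAAT boxes, the farther at 71 to 67 bases. The upstream window of Me1 holds 3 GC boxes and no CCAAT box or E box, and its second window (chr9:86687278-86687527, minus strand) holds 1 CCAAT box. The motif matches are a description of letters and not measured binding.

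The fatty acid arm held the greatest differences among the 30 genes, those of Scd2, Me1 and Scd1. Scd2 and Scd1 encode stearoyl-CoA desaturases, which turn saturated fatty acids into monounsaturated ones. Scd2 (probe set 10463355) read 11.40, 11.45 and 11.33 on wild type arrays 1, 2 and 3, and 10.77, 10.68 and 10.76 on the St2-/- arrays. Every wild type array lay above every St2-/- array, by more than 0.5. Scd2 was 1.58-fold lower in St2-/- cells (means 11.39 ± 0.06 and 10.74 ± 0.05, SD, n = 3; log2 difference -0.66 ± 0.07, SE; limma adjusted p = 8.47e-05).

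Scd1 (probe set 10467979) read 6.59, 6.54 and 6.76 in wild type and 6.20, 6.32 and 6.21 in St2-/-. The groups did not overlap, and the nearest arrays were wild type replicate 2 and St2-/- replicate 2. Scd1 fell by 0.39 ± 0.08 (SE) on the log2 scale, which is 1.31-fold (limma adjusted p = 0.00606). The call was lost in a two-sample test that leaves out limma's moderation (adjusted p = 0.0526, the highest of a range from 0.00237). The desaturase genes are close relatives that neighbour one another on chromosome 19, and their probes may share targets, so the separate values of Scd1 and Scd2 are uncertain.

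Me1 encodes cytosolic malic enzyme, which makes NADPH from malate. Me1 (probe set 10595480) read 6.64, 6.71 and 6.66 in wild type and 6.11, 6.08 and 6.04 in St2-/-, so that the spread within each group was small beside the gap between them. It was 1.51-fold lower in St2-/- cells (means 6.67 ± 0.04 and 6.08 ± 0.04, SD, n = 3; log2 difference -0.59 ± 0.06, SE; limma adjusted p = 0.000108). A second probe set of Me1 (10405753) gave the same picture, with 6.17, 6.34 and 6.25 in wild type and 5.70, 5.70 and 5.57 in St2-/-, a difference of -0.60 ± 0.07 (SE; adjusted p = 0.00371 over all rows of the table). Me1 and Scd2 were called under each of the 16 alternative settings, with adjusted p-values up to 0.00292 and 0.00561.

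Elovl5, an elongase of polyunsaturated fatty acids, was the member of the arm that rose. Elovl5 (probe set 10587284) read 9.08, 9.12 and 9.06 in wild type and 9.37, 9.28 and 9.39 in St2-/-, with no overlap. The difference was 0.26 ± 0.06 (SE), or 1.20-fold (limma adjusted p = 0.0168). The call was lost after cyclic loess (difference 0.17, adjusted p = 0.0781) and without St2-/- replicate 1 (0.0595) or replicate 3 (0.0726), in a range over alternatives from 0.000986 to 0.0781. Elovl6, which elongates saturated and monounsaturated fatty acids, read 6.57, 6.43 and 6.57 in wild type and 6.78, 6.61 and 6.80 in St2-/-. Its groups did not overlap either, but the difference of 0.21 ± 0.08 (SE) missed the threshold (adjusted p = 0.0888). Elovl6 was called higher with arrays centred on their median (0.0158) and without the dimmest 40% of genes (0.0466), and its adjusted p ran up to 0.252.

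**Figure D2:**
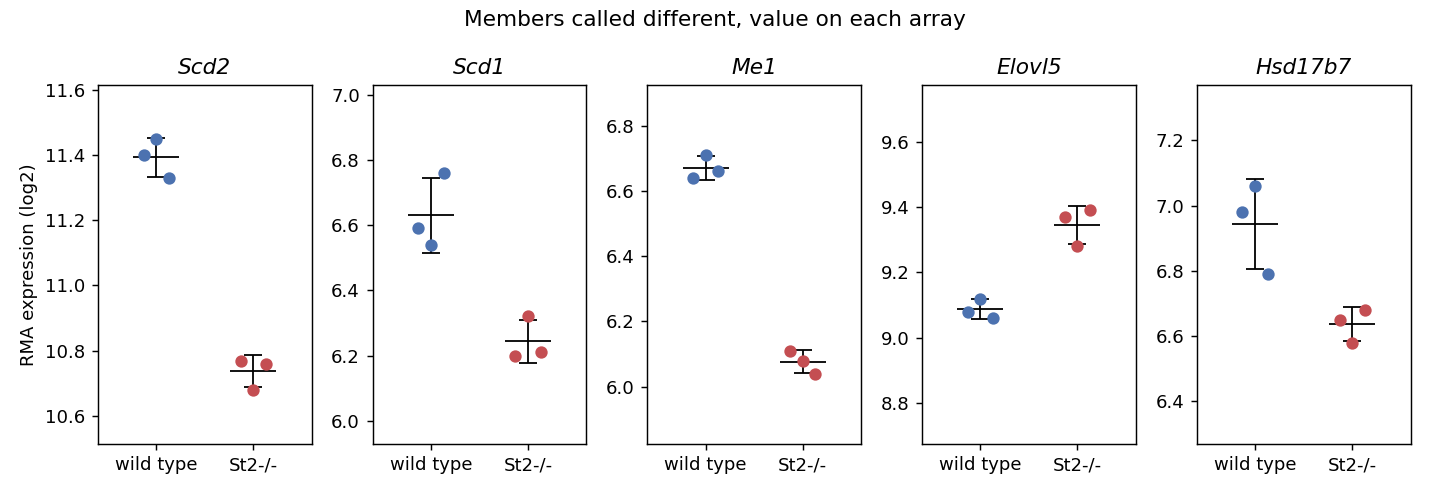
RMA expression (log2, vertical axis, each panel spanning 1.1 units) on each of the 3 wild type (blue) and 3 St2-/- (red) arrays for the 5 genes called, with the mean as a bar and the SD as whiskers. In Scd2, Scd1, Me1 and Hsd17b7 all wild type points lie above all St2-/- points, and in Elovl5 below them.

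The enzymes that assemble the chain did not pass. Acly, the citrate lyase that supplies cytosolic acetyl-CoA, differed by -0.01 (95% interval -0.15 to 0.13). Fasn, fatty acid synthase, read 7.53, 7.63 and 7.72 in wild type and 7.62, 7.41 and 7.53 in St2-/-, and these ranges overlap. Its difference was -0.11 (interval -0.28 to 0.07). Acaca, acetyl-CoA carboxylase, read 7.44, 7.39 and 7.38 in wild type and 7.34, 7.24 and 7.34 in St2-/-, which did not overlap, with a difference of -0.10 (interval -0.24 to 0.05; adjusted p = 0.329). Its second, dimmer probe set went the other way (0.11 ± 0.11, SE), and the mean of both gave 0.01. On the brighter probe sets the intervals of Acly, Fasn and Acaca leave out a difference as large as that of Me1 or Scd2.

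Srebf1, whose protein activates fatty acid synthesis genes, read 7.59, 7.61 and 7.59 in wild type and 7.52, 7.49 and 7.51 in St2-/-. The arrays of each group were nearly equal and the groups did not overlap, but the gap was small, -0.09 (interval -0.22 to 0.04; limma adjusted p = 0.327). The unmoderated two-sample test called it (0.0184), and with median-centred arrays the groups' means were equal (adjusted p = 1).

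Among the desaturases of polyunsaturated fatty acids, Fads1 read 9.56, 9.57 and 9.44 in wild type and 9.59, 9.63 and 9.59 in St2-/-. The groups narrowly did not overlap, and the difference was 0.08 (interval -0.07 to 0.23; adjusted p = 0.438). Fads2 differed by -0.13 (interval -0.30 to 0.04; adjusted p = 0.258). In all, 8 of the 11 genes of the fatty acid arm and 3 of 19 of the sterol arm had groups that did not overlap, against 36.4% of all genes. That share was not worked out for the brighter genes alone. Srebf1, Acaca, Elovl6, Fads1, Ebp and Dhcr7 were among the genes without overlap and were not called.

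The sterol arm showed small differences at each stage of the route. Of the 19 genes, 13 had a positive and 6 a negative difference, against 8830 positive and 10952 negative over all genes. This split moved with the scaling, to 16 and 3 with median-centred arrays and 10 and 9 after cyclic loess. The differences ran from -0.31 (Hsd17b7) to 0.27 (Idi1). The 3 genes with an unadjusted p under 0.05 were Hsd17b7, Ebp and Idi1. For 18 of the 19 genes the 95% interval lay within 0.5 on either side of 0, a width taken after seeing the data, and Idi1 was the exception with an upper bound of 0.52. With median-centred arrays 2 sterol genes were called higher (Idi1 and Ebp) and 0 lower.

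Of the mevalonate steps, Hmgcs1, which makes hydroxymethylglutaryl-CoA, read 8.11, 8.09 and 8.07 in wild type and 8.04, 8.02 and 8.14 in St2-/-. These overlapped, with a difference of -0.02 (interval -0.17 to 0.12). The kinase genes Mvk and Pmvk and the decarboxylase gene Mvd differed by 0.04, 0.11 and -0.05, and 0 of these 4 genes was called. The widest interval bound among the 4 was 0.26.

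Idi1, the isomerase that yields the active isoprenoid unit, had the greatest positive difference of the arm and also a wide spread. It read 6.47, 6.78 and 6.93 in wild type and 6.97, 6.92 and 7.09 in St2-/-, where wild type replicate 1 was low and replicate 3 lay just above the lowest St2-/- array. The difference was 0.27 ± 0.11 (SE; limma adjusted p = 0.125). A second probe set (10482762) read 6.33, 6.55 and 6.65 against 6.79, 6.78 and 6.93, which did not overlap, with a difference of 0.32 ± 0.10 (SE; adjusted p = 0.0844 over all rows). Idi1 was called without wild type replicate 3 (0.0418) and with centred arrays (0.0348), and its adjusted p ran up to 0.324. Fdps, which builds farnesyl diphosphate, read 6.38, 6.50 and 6.55 in wild type and 6.68, 6.25 and 6.46 in St2-/-, with the highest and the lowest of the 6 values both among the St2-/- arrays.

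At the entry to sterols proper, Fdft1, the squalene synthase, differed by 0.10 (interval -0.06 to 0.26), and its second probe set by 0.07. Sqle, the squalene epoxidase and a rate-limiting step, read 7.50, 7.38 and 7.24 in wild type and 7.27, 7.23 and 7.10 in St2-/-. Wild type replicate 3 lay among the St2-/- values, and the difference was -0.17 (interval -0.36 to 0.01; adjusted p = 0.182). Lss, which closes the ring to lanosterol, differed by 0.09 (interval -0.08 to 0.26).

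Of the 7 later steps, Hsd17b7, a ketosteroid reductase that works in the removal of the methyl groups of lanosterol, was called. Hsd17b7 (probe set 10359917) read 6.98, 7.06 and 6.79 in wild type and 6.65, 6.58 and 6.68 in St2-/-. The groups did not overlap, with wild type replicate 3 nearest to the St2-/- arrays. It fell by 0.31 ± 0.08 (SE), or 1.24-fold (limma adjusted p = 0.024). The call held in 8 of the 16 alternatives (adjusted p from 0.00684 to 0.107). It was lost with centred arrays (0.0983), with p adjusted over all rows of the table (0.0641), in the unmoderated test (0.107), and on leaving out any 1 array (0.0526 to 0.084) other than wild type replicate 3.

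The enzymes that act beside Hsd17b7 were not called. Cyp51, Msmo1 and Nsdhl, which carry out the demethylation of lanosterol, differed by 0.01, 0.01 and 0.01, with intervals between -0.20 and 0.21. Ebp, the sterol isomerase, read 8.11, 8.06 and 8.02 in wild type and 8.33, 8.13 and 8.30 in St2-/-. Its groups did not overlap, and the difference of 0.19 ± 0.07 (SE) had an adjusted p of 0.0997, with 0.0213 for centred arrays and 0.042 with an intensity trend in a range up to 0.297. Sc5d, a sterol desaturase, differed by 0.14 (interval -0.04 to 0.32). Dhcr7, the last reductase, read 7.54, 7.53 and 7.51 against 7.58, 7.65 and 7.56, which narrowly did not overlap, with a difference of 0.07 (interval -0.07 to 0.21).

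The sterol sensors and carriers showed no call. Srebf2, whose protein activates sterol synthesis, read 8.37, 8.31 and 8.41 in wild type and 8.43, 8.37 and 8.43 in St2-/-, a difference of 0.05 (interval -0.09 to 0.19). Insig1, itself a target of that protein and often read as a gauge of it, read 9.79, 9.64 and 9.78 against 9.71, 9.57 and 9.57, a difference of -0.12 (interval -0.28 to 0.04; adjusted p = 0.292). Stard4, a carrier of cholesterol in the cytosol, differed by 0.07 (interval -0.08 to 0.23). For Srebf2 and Insig1 the groups overlapped.

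Relatives of the called enzymes were taken from a wider list. Fads3, a relative of Fads1 and Fads2 in the same cluster on chromosome 19, read 8.06, 7.96 and 8.13 in wild type and 7.43, 7.23 and 7.35 in St2-/-. It fell by 0.71 ± 0.08 (SE; limma adjusted p = 0.000138), or 1.64-fold, beside differences of 0.08 for Fads1 and -0.13 for Fads2. Scd3 and Scd4 were dim and not called, with differences of 0.04 and -0.34 (adjusted p = 0.0763 for Scd4). Elovl1, an elongase of saturated very long chains, fell by 0.25 ± 0.06 (SE; adjusted p = 0.0156), where Elovl5 rose, but with centred arrays its adjusted p was 0.102. Elovl2, Elovl3, Elovl4 and Elovl7 were not called.

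**Figure D3:**
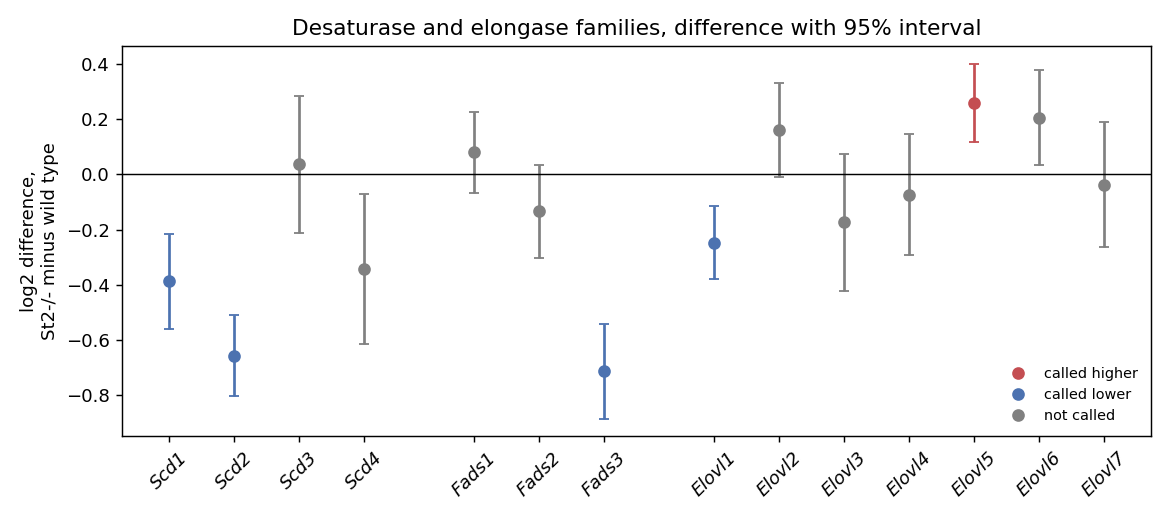
Log2 difference (St2-/- minus wild type, vertical axis) with its 95% interval for the stearoyl-CoA desaturase, polyunsaturated fatty acid desaturase and elongase gene families. Scd1, Scd2, Fads3 and Elovl1 were called lower (blue) and Elovl5 higher (red), and the other genes (grey) were not called.

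The wider fatty acid list had 28 genes, 25 of them measured, of which 5 were higher, 4 lower and 16 not called (36.0% called, median -0.02). This share lies near the 30.4% called among genes above the dimmest 40%, and over all genes 20.8% were called. With median-centred arrays 7 were higher and 3 lower, and after cyclic loess 4 and 4. Next to Fads3 and Elovl1, Idh1, cytosolic isocitrate dehydrogenase, fell by 0.50 ± 0.09 (SE; adjusted p = 0.0029). The acyl-CoA synthetase genes Acsl4 and Acsl5, which activate fatty acids for use in lipids, rose by 0.40 and 0.33. The dehydratase genes of the elongation cycle moved apart, with Hacd1 at -0.66 and Hacd2 at 0.51, both called. Mlx, the partner of a carbohydrate-sensing activator of fatty acid synthesis, rose by 0.43, and the reductase gene Hsd17b12 by 0.20 (adjusted p = 0.0463, and 0.253 after cyclic loess). Thrsp (-0.22) and Scd4 were the genes not called with the smallest p.

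The wider sterol list had 20 genes, 13 of them measured, with 1 higher, 2 lower and 10 not called (23.1% called, median 0.01), a share near the 20.8% called over all genes and below the 30.4% among genes above the dimmest 40%. With median-centred arrays 3 were higher and 2 lower, and after cyclic loess 1 and 4. Lbr, a nuclear membrane protein that is also a sterol reductase, read 8.55, 8.53 and 8.36 in wild type and 9.26, 9.17 and 9.27 in St2-/-, with no overlap. It rose by 0.75 ± 0.07 (SE; limma adjusted p = 7.32e-05), a greater difference than that of any gene of the sterol arm. Tm7sf2, which carries out the same reduction, differed by -0.19 (adjusted p = 0.111). Cyb5r3, which passes electrons to desaturases and sterol oxidases, fell by 0.38 and Syvn1, a ubiquitin ligase of the endoplasmic reticulum, by 0.33. Tmem97, a sterol-responsive membrane protein, was not called either (0.20; adjusted p = 0.113).

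**Figure D4:**
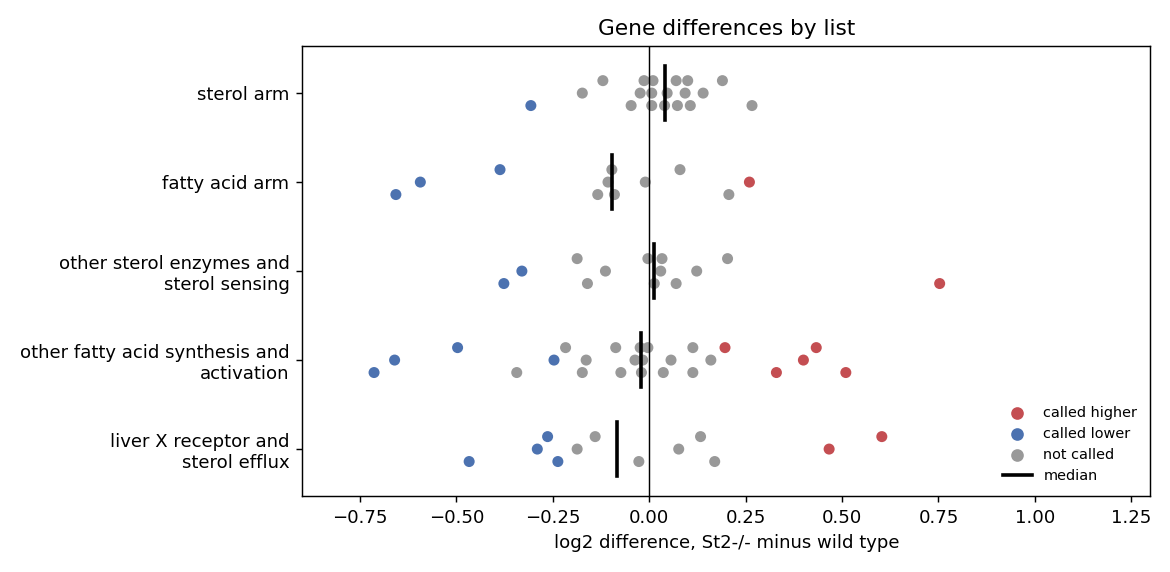
Log2 difference (St2-/- minus wild type, horizontal axis) of every measured gene of the sterol arm, the fatty acid arm and the 3 wider lists, 1 point a gene, with the list's median as a black bar and calls in red (higher) and blue (lower). The sterol arm has a single call, and the other 4 lists have genes called on both sides of 0.

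Markers of some other cells moved with genotype in the same samples. Over all genes 20.8% were called, and 30.4% of those above the dimmest 40%. The called share was 11.1% of the fat cell list and 12.5% of the epithelial and tumour cell list, below both backgrounds. In the other lists, of few genes each, it ran from 50.0% (dendritic cell) to 87.5% (fibroblast). Of 9 fat cell genes 1 was called, Lipe (0.40, higher), and the list's mean per array was 4.99 to 5.05 in wild type and 4.93 to 4.98 in St2-/-. Adipoq, which defines fat cells, averaged 3.57 in wild type and 3.45 in St2-/-, below the median gene of every array, and was not called. Of 8 fibroblast genes 6 were lower and 1 higher, with list means of 7.81 to 7.84 and 6.44 to 6.54, Dcn 3.33 and Lum 3.56 lower on the log2 scale in St2-/-. Of 7 endothelial genes 4 were lower and 2 higher (6.22 to 6.39 and 5.97 to 6.04), and of 8 epithelial and tumour cell genes 1, Krt8, was lower (6.02 to 6.18 and 5.99 to 6.02). Of 6 neutrophil genes 3 were lower and 1 higher (5.97 to 6.07 and 5.21 to 5.31).

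In the other direction, of 7 proliferation genes 5 were higher and 0 lower (8.33 to 8.35 and 8.67 to 8.71), among them Bub1 (0.62) and Top2a (0.31). Of 8 T and NK cell genes 6 were higher (4.41 to 4.45 and 5.30 to 5.38), and of 3 B cell genes 2 (4.79 to 4.94 and 5.12 to 5.29). The 6 dendritic cell genes were mixed, with Xcr1 (3.37) and Clec9a (1.88) higher, Ccr7 (-0.26) lower and 3 not called. Their mean per array was 5.07 to 5.29 in wild type and 5.91 to 6.05 in St2-/-, but their median difference was -0.01. The mean per array of the 9 macrophage genes was 10.91 to 10.96 in wild type and 10.85 to 10.91 in St2-/-. The part of these cells in the differences of Scd1, Scd2, Me1, Elovl5 and Hsd17b7 was not tested.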

How the data were processed

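RNA of F4/80+ cells of tumours from wild type hosts (3 samples) and St2-/- hosts (3 samples) was hybridised to Affymetrix 1.0 ST Gene arrays, per the labels. The number of hosts is not given there. The authors deposited log2 values, which the submitters' processing notes credit to RMA. That method includes quantile normalization, which hides any shift that most genes share. The version, annotation or build was not given in the sources used here, and the log base was taken from RMA's usual output. The number of arrays limits the precision.

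Of 35556 probe sets, 21789 had 1 symbol in the platform annotation, 1621 several and 12146 none listed there. The brightest per gene left 19938 genes, with 21698 probe sets matched by gene identifier to the RefSeq table (GRCm38.p6) and 0 symbols changed. The genotypes were compared with limma 3.58.1 in R 4.3.3 (lmFit, eBayes, two-sided, Benjamini-Hochberg over all genes), with adjusted p under 0.05 called. The test was checked on simulated data with 200 genes changed in each draw. It recovered 12.2% of log2 changes of 0.25 and 94% of those of 0.5, so small differences can go uncalled. Far more genes were called in the real data, so these shares may differ there. The members and lists were chosen with earlier results of these data known. Named were all 30 measured members, with array values for those called or not overlapping and, chosen after their values were seen, for Hmgcs1, Idi1, Fdps, Sqle, Fasn, Srebf2 and Insig1, the called genes of the wider lists with 2 others of each, and up to 2 genes of each marker list. Scd3, the elongase genes not called and the macrophage and dendritic cell genes past the first 2 were also named after their values were seen. The comparison of protein sequences that had been planned was not made. Alternatives were other scalings (median-centred arrays, cyclic loess), other variance models (an intensity trend, a robust prior, array weights, an unmoderated two-sample test), other feature sets (every row, a mean over probe sets, only genes above the dimmest 40%), a block for replicate number, and dropping each array in turn. Promoter windows were searched for exact letters.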

Additional observations from a re-analysis of the deposited data

How the results depend on the processing

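Scd2 and Me1 kept their direction and call under all 16 alternatives, and no called gene changed sign. Of the members' values under them, 434 kept direction and call, 2 came to 0 (Srebf1 with median-centred arrays and Hmgcs1 without St2-/- replicate 2), 12 lost a call, 7 gained one and 25 changed sign. The count of sterol genes called was 1 as reported, 2 with median-centred arrays, 2 with an intensity trend, 0 with p adjusted over all rows, 0 in the unmoderated test, and 0 to 2 on leaving out 1 array. The fatty acid count was 4, and 3 to 5 under the alternatives, with 3 lower in each. In the unmoderated test Srebf1 stood in place of Scd1 among those 3. The genes called higher there were 2 with median-centred arrays or without the dimmest 40% of genes, 0 after cyclic loess and 0 to 1 on leaving out 1 array. The count over all genes was 4141, and 2703 in the unmoderated test. The labels do not say whether equal replicate numbers pair the arrays. Deviations from the group means were hardly correlated between arrays of equal number (0.012, -0.012 and -0.048), which cannot show how the samples were collected. With the replicate block 3571 genes, 1 sterol and 4 fatty acid genes were called. The 10 genes that changed sign were all near 0 and not called. With median-centred arrays these were Hmgcs1 (0.0667), Mvd (0.0433), Fdps (0.0767) and Acly (0.08). After cyclic loess they were Fdps (0.0019), Cyp51 (-0.0167), Msmo1 (-0.0791), Nsdhl (-0.0632), Srebf2 (-0.0366) and Fads1 (-0.0154). With array weights they were Cyp51 (-0.0129) and Msmo1 (-0.0055), and with the mean of probe sets Acaca (0.0067). On leaving out 1 array the difference ran from -0.135 to 0.03 for Mvd, from -0.1217 to 0.0933 for Fdps, from -0.08 to 0.06 for Cyp51, from -0.0517 to 0.1083 for Msmo1, from -0.045 to 0.035 for Nsdhl and from -0.0267 to 0.0067 for Acly. The cause of these changes was not tested. Array number and the unknown source of the replicates limit what small differences can show.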

Other observations

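Genes of the liver X receptors, which sense sterols and drive their export and which also act on Srebf1 and the desaturase genes, were called in both directions. Of 13 listed genes 12 were measured, with 2 higher, 4 lower and 6 not called (50.0% called; median difference -0.08). Over all genes 20.8% were called, and 30.4% of those above the dimmest 40%. With arrays centred on their median 4 were higher and 2 lower, and after cyclic loess 2 were higher and 5 lower (median -0.17). Nr1h3, the receptor gene of macrophages, read 7.60, 7.47 and 7.44 in wild type and 7.30, 7.25 and 7.17 in St2-/-, and fell by 0.26 ± 0.07 (SE; limma adjusted p = 0.0268, and 0.113 with centred arrays). The cholesterol exporter genes went apart. Abca1 fell by 0.29 ± 0.06 (SE), from 10.70 ± 0.05 to 10.41 ± 0.03 (SD, n = 3), and Abcg1 rose by 0.60 ± 0.06 (SE), from 9.41 ± 0.03 to 10.02 ± 0.04 (SD, n = 3). Both calls held with centred arrays (adjusted p = 0.0411 and 3.29e-05) and after cyclic loess (0.00199 and 0.00021).

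Lpcat3, which places polyunsaturated fatty acids into phospholipids, fell by 0.47 ± 0.07 (SE; limma adjusted p = 0.00172), while Elovl5 of the route that makes those acids rose. The lysosomal cholesterol carriers also went apart, with Npc2 higher by 0.47 ± 0.07 (SE) and Npc1 at -0.24 ± 0.06 (SE), whose call was lost with centred arrays (adjusted p = 0.13). Apoe (-0.14, adjusted p = 0.137) and Rxra (-0.19, adjusted p = 0.138) were the genes not called with the smallest p. After cyclic loess Apoe was called lower (limma adjusted p = 0.0251) and Rxra was not called (0.0604).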
